A study of Homo sapiens with 12 samples.

Results

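The genes described here are 46 genes of DNA replication and S phase, the part of the cell cycle in which the genome is copied. They were taken from a fixed list of gene symbols, and all 46 were found among the 11963 genes that the arrays measured under a single symbol. They have 74 probe sets (groups of short probes for one transcript), 26 of them with 1 probe set and 20 with several, and each gene was read from its brightest probe set by mean signal over the 12 arrays. The arrays come from HCC827, an established human lung adenocarcinoma line with an activating mutation of the receptor EGFR, and from cells made from it. There are 4 groups of 3 arrays: parental HCC827 cells, the line ERC4, which resists the EGFR kinase inhibitor erlotinib per the labels, HCC827NT cells (here NT), which received a lentivirus for a non-target shRNA, and HCC827_Esh9-1 cells (here Esh9-1), which received a lentivirus for an shRNA against EGFR. All 4 groups derive from HCC827 and were harvested while growing exponentially in RPMI with 5% FBS, and the medium of NT and Esh9-1 cells also held 5 ug/ml puromycin, per the labels. ERC4 is 1 resistant line and Esh9-1 is 1 shRNA, so what belongs to that line or shRNA alone and what belongs to resistance or to EGFR loss cannot be told apart. Another label describes every sample as resistant, including parental cells, so groups were taken from the titles.

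Before S phase, the origin recognition complex, CDC6 and CDT1 load the ring of MCM2 to MCM7 onto DNA, and kinases then turn this ring into the active helicase by adding CDC45 and the GINS complex. Behind the helicase, polymerase alpha with primase starts new strands, polymerases delta and epsilon extend them on the PCNA clamp, and enzymes of nucleotide supply provide the building blocks. Transcription of many of these genes rises at the border of G1 and S phase through E2F transcription factors, which growth factor receptors such as EGFR switch on by way of cyclin D and the RB protein.

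Promoter sequences are shown first, since many of these genes moved in the same direction. Of the 46 genes, 41 had a promoter of 300 bases (250 before and 50 after the start of the transcript) in the RefSeq table of GRCh38.p14. On either strand, 13 of these 41 genes (31.7%) held TTTCGCGC or TTTGGCGC, 2 forms of the E2F site (here E2F words) and the only ones searched. The same words were held by 2.22% of the 9563 array genes with a promoter and by 1.15% of all 35116 promoters in the table. The CCAAT box, a common promoter word, was present in 61.0% of the 41 genes and in 44.2% of the array genes. The stretches printed here, 5′ to 3′ on the strand of the gene, are the parts of the promoters of 11 of the 13 genes around the E2F words, which are in capitals. They were chosen to set the helicase genes beside CDC6, the polymerases and E2F1 itself, whose changes differ in sign and size.
MCM2, chr3:127598371-127598430, plus strand: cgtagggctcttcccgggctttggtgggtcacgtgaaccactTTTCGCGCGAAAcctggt
MCM3, chr6:52284723-52284782, minus strand: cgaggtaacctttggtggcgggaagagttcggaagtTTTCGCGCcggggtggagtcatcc
MCM6, chr2:135876514-135876608, minus strand: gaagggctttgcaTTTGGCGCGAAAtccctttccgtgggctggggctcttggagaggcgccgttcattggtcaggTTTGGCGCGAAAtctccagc
MCM7, chr7:100101378-100101437, minus strand: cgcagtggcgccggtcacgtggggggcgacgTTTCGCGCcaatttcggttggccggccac
CDC6, chr17:40287839-40287898, plus strand: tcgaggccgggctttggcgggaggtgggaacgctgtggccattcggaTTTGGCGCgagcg
GINS1, chr20:25407633-25407692, plus strand: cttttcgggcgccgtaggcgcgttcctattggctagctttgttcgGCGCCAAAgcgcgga
POLA1, chrX:24693758-24693807, plus strand: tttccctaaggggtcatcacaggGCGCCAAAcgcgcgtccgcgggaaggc
POLA2, chr11:65261892-65261941, plus strand: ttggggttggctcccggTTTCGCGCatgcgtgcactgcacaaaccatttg
POLE, chr12:132687323-132687382, minus strand: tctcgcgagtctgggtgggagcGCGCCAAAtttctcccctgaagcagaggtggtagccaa
POLE2, chr14:49688195-49688254, minus strand: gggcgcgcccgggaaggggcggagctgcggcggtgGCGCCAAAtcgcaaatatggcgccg
E2F1, chr20:33686366-33686425, minus strand: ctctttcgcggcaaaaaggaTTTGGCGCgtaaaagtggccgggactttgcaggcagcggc
The promoters of MCM2 and MCM6 held the word on both strands at once, because the runs TTTCGCGCGAAA and TTTGGCGCGAAA read as an E2F word from either side, and MCM6 had this run at 2 places. GMNN and DUT were the other 2 genes with a word. A match is a run of letters and not a measured binding site.

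On the log2 scale (log2 of intensity + 1, used throughout) the median gene of an array lay between 6.07 and 6.12 in the set of parental and ERC4 arrays. In the set of NT and Esh9-1 arrays it lay between 7.63 and 7.70, so levels are compared only within each of these 2 sets. EGFR, the target of the shRNA, fell by 1.30 ± 0.07 (SE) in Esh9-1 against NT (adjusted p = 2e-09) and was 0.21 ± 0.07 higher in ERC4 than in parental cells (adjusted p = 0.025). Of the 11 measured markers of lung epithelial carcinoma, 8 were lower and 2 higher in ERC4, and all 11 were lower in Esh9-1 (limma adjusted p under 0.05). EGFR itself is 1 of these 11 markers, so its 2 changes given above are counted here again. Over all genes, 28.8% were lower and 28.9% higher in ERC4, and 24.6% were lower in Esh9-1. The summed intensity of the 11 markers, EGFR included, was 14806 to 15497 in ERC4 against 25355 to 25719 in parental arrays. It was 16086 to 16415 in Esh9-1 against 72941 to 75424 in NT. Markers of leukocytes (13 measured) summed to 998 to 1146 in parental and 612 to 649 in ERC4 arrays, and to 5282 to 5736 in NT and 1263 to 1298 in Esh9-1 arrays. By the same threshold, 6 of these markers were lower and 0 higher in ERC4, with a median log2 fold change of -0.22. In Esh9-1, 4 were lower and 1 higher with a median of -0.03, so the fall of the sum was not that of the median marker. Markers of fibroblasts and endothelium (13 measured) summed to 579 to 596 and 482 to 509 in the first set, and to 1221 to 1312 and 1235 to 1292 in the second. Of them, 6 were lower and 1 higher in ERC4 (median -0.18), and 2 lower and 1 higher in Esh9-1 (median -0.08). None of these markers was listed at 0. For ACTB, the log2 signal of the 3′ control probe set exceeded that of the 5′ one by 0.20 ± 0.03 (SD, n = 3) in NT and 1.07 ± 0.15 in Esh9-1, and for GAPDH the same quantity was -0.05 ± 0.02 and 0.30 ± 0.08. In parental and ERC4 arrays the ACTB values were 0.22 ± 0.05 and 0.19 ± 0.04, and the GAPDH values 0.06 ± 0.03 and -0.08 ± 0.03, which did not overlap. Spiked hybridisation controls averaged 11.04 ± 0.15 in parental against 9.48 ± 0.07 in ERC4 arrays, and 11.37 ± 0.10 in NT against 11.92 ± 0.06 in Esh9-1 arrays. The part of these differences in the results below was not tested.

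The replication genes moved mostly up in ERC4 cells and mostly down in Esh9-1 cells. In ERC4 against parental cells, 30 of the 46 genes rose and 5 fell (limma, p adjusted by Benjamini-Hochberg over the 11963 genes and under 0.05, here "called"), with a median log2 fold change of 0.28 against -0.04 over all genes. This is 65.2% higher and 10.9% lower, where 28.9% of all genes were called higher, 28.8% lower and 57.7% in either direction. In Esh9-1 against NT cells, 32 genes fell and 5 rose, with a median of -0.31 against -0.02 over all genes. In bulk cultures such as these, fewer cells in S phase and less of each transcript per cell cannot be told apart. The Esh9-1 shares are 69.6% lower and 10.9% higher, where 24.6% of all genes were called lower, 25.3% higher and 49.9% in either direction. The 3 arrays of ERC4 lay entirely above those of the parental line for 29 genes and entirely below for 5, where 29.8% and 30.7% of all genes did so. Those of Esh9-1 lay entirely below NT for 34 genes and entirely above for 8, where 31.2% and 30.2% of all genes did so.

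**Figure D1:**
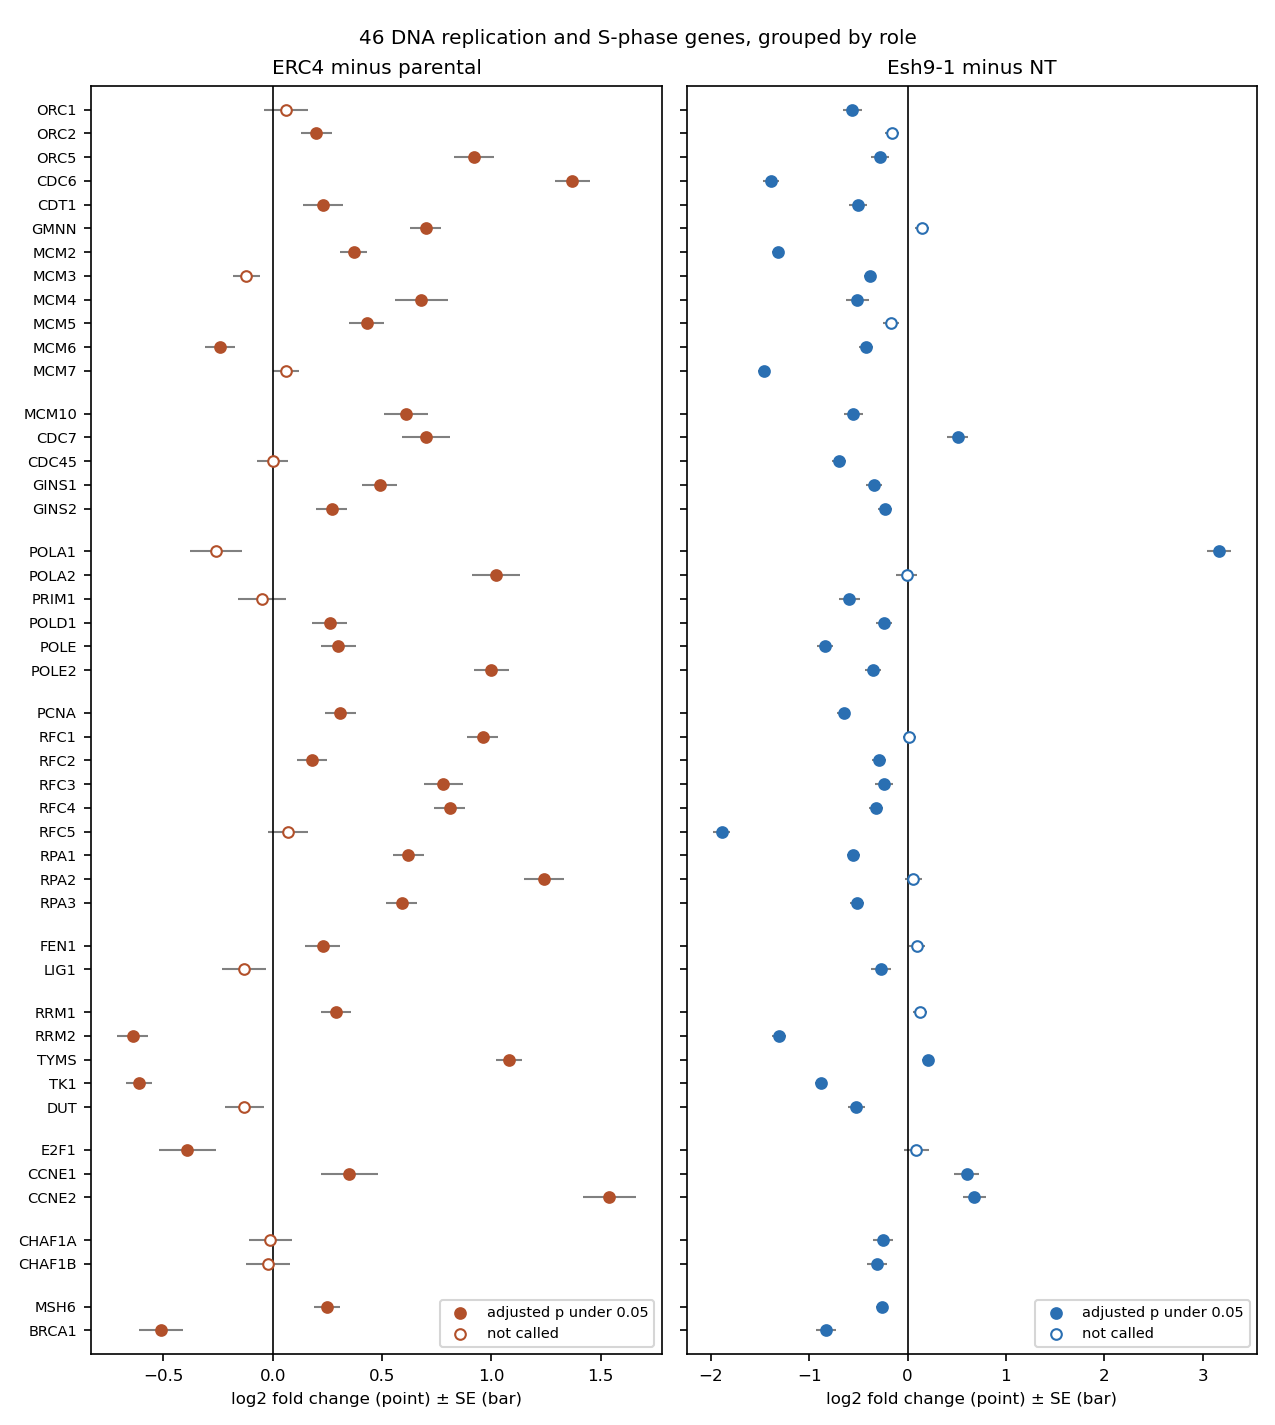
Log2 fold change (x axis, no unit) of each of the 46 genes (y axis, grouped by role from origin licensing at the top to repair at the bottom) in ERC4 minus parental and in Esh9-1 minus NT. Points are estimates from 3 against 3 arrays, bars are limma standard errors, and filled points are called. In ERC4 the called points (30 to the right of 0, 5 to the left) lie between -0.64 and 1.54, though CDT1, RFC2 and FEN1 move to just under 0 after quantile normalization. In Esh9-1, 32 called points lie left of 0, and POLA1 stands alone at 3.17.

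Bright genes in general also lay higher in ERC4. Of the 46 genes, 39 lie among the 3987 brightest genes by mean signal, and of those 3987 genes 52.8% were called higher and 16.8% lower in ERC4, with a median of 0.21. Among the 39 replication genes, 27 were higher and 4 lower, with a median of 0.30. After quantile normalization within each set, which brought the median of the 3987 bright genes to 0.02, the split over the 46 genes was 21 higher and 9 lower, with a median of 0.11. Of the 3987 bright genes, 35.6% were called higher in ERC4 after this normalization. GINS2, POLD1, POLE, PCNA, RRM1 and MSH6 then lost their calls, and CDT1, RFC2 and FEN1 lay at or just below 0. In Esh9-1 the bright genes had no such shift (34.8% higher, 32.8% lower, median 0.02), and 34 replication genes were called lower after the same normalization. The bright genes then had a median of 0.01 in Esh9-1 with 34.1% called higher, and their share called lower was not counted.

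**Figure D2:**
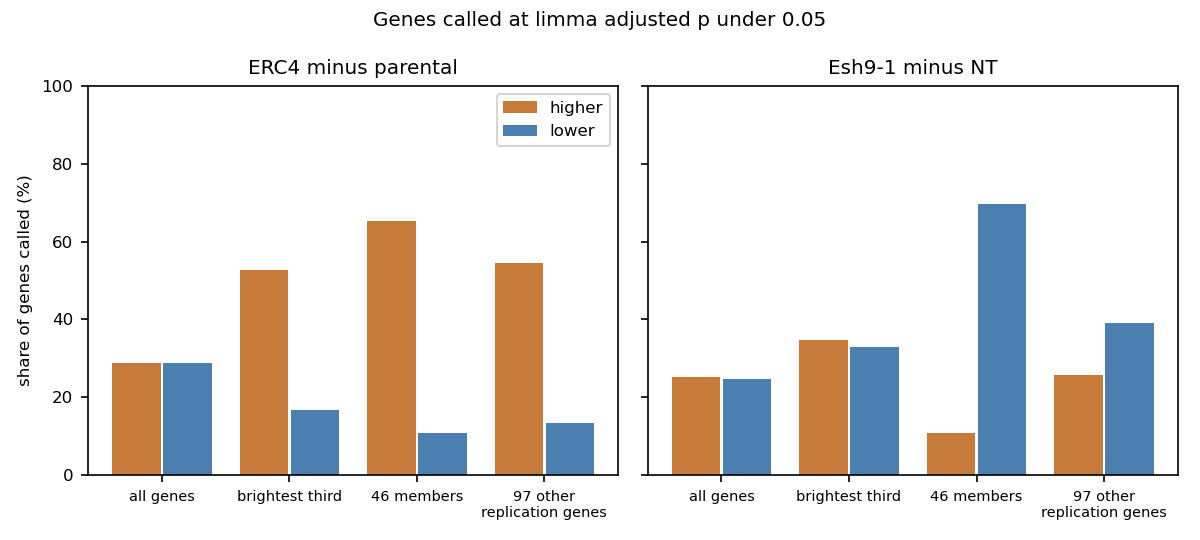
Share of genes (y axis, percent) called higher or lower in ERC4 minus parental (left) and Esh9-1 minus NT (right), for all 11963 genes, the 3987 brightest, the 46 replication genes and 97 other listed replication genes. In ERC4 the 65.2% higher stands beside 52.8% of bright genes, and in Esh9-1 the 69.6% lower stands beside 32.8%.

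Among the 12 licensing genes, 8 (66.7%) rose and 1 fell in ERC4, while 9 (75%) fell and none rose in Esh9-1. Of the 3987 brightest genes 52.8% were called higher in ERC4 and 32.8% lower in Esh9-1, and of all genes 28.9% and 24.6%. These shares belong beside each count by role given below. CDC6, the ATPase that recruits the helicase to origins, had the highest difference between the 2 comparisons. Its log2 level was 7.18, 7.23 and 7.13 in the parental arrays and 8.48, 8.61 and 8.57 in the ERC4 arrays. The increase of 1.37 ± 0.08 is 2.59-fold (adjusted p = 2.9e-09), and the groups did not overlap. In NT arrays CDC6 stood at 10.09, 9.89 and 10.02 and in Esh9-1 arrays at 8.63, 8.71 and 8.50. It thus fell by 1.39 ± 0.08, which is 2.63-fold (adjusted p = 1.1e-09), again with no overlap.

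ORC5, a subunit of the origin recognition complex, rose in ERC4 from 6.76, 7.10 and 7.20 to 7.98, 7.94 and 7.90, by 0.92 ± 0.09 (adjusted p = 1.5e-06). Its drop from 9.87, 9.91 and 9.88 in NT to 9.71, 9.54 and 9.58 in Esh9-1, by 0.28 ± 0.09 (adjusted p = 0.023), was also without overlap. ORC2, another subunit, gave 0.20 ± 0.07 in ERC4 (adjusted p = 0.016) and -0.16 ± 0.07 in Esh9-1 (adjusted p = 0.054). ORC1, a subunit whose protein level varies through the cell cycle, gave 0.06 ± 0.10 in ERC4 (adjusted p = 0.65) and fell by 0.56 ± 0.10 in Esh9-1 (adjusted p = 0.00027). CDT1, the partner of CDC6 in loading, read 7.83, 7.68 and 7.83 in parental and 7.95, 8.04 and 8.02 in ERC4 arrays, a difference of 0.23 ± 0.09 (adjusted p = 0.048) that became -0.0027 after quantile normalization within the set. From NT (9.64, 9.75 and 10.01) to Esh9-1 (9.40, 9.33 and 9.19) CDT1 fell by 0.50 ± 0.09 (adjusted p = 0.00035). GMNN, which encodes geminin, the inhibitor of CDT1, rose by 0.70 ± 0.07 in ERC4 (adjusted p = 8e-07) and gave 0.15 ± 0.07 in Esh9-1 (adjusted p = 0.079).

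The 6 subunits of the MCM ring differed among themselves. MCM2 lay at 9.72, 9.60 and 9.75 in parental and 10.07, 10.09 and 10.03 in ERC4 arrays, a rise of 0.37 ± 0.06 (adjusted p = 0.00021). In the other set it lay at 11.86, 11.98 and 11.88 in NT and 10.60, 10.58 and 10.58 in Esh9-1, a 2.5-fold drop of 1.32 log2 units (adjusted p = 3.3e-10). MCM7 was not called in ERC4, with 10.12, 10.04 and 10.04 in parental and 10.10, 10.10 and 10.18 in ERC4 arrays that overlapped (0.06 ± 0.06, adjusted p = 0.43). It had the lowest log2 fold change of the ring genes in Esh9-1, where it went from 12.20, 12.24 and 12.20 to 10.71, 10.84 and 10.72 and fell by 1.46 ± 0.06, 2.75-fold (adjusted p = 7.8e-11). MCM4 read 7.78, 8.33 and 8.23 in parental and 8.67, 8.94 and 8.78 in ERC4 arrays (0.68 ± 0.12, adjusted p = 0.00022). Its NT values of 11.26, 11.06 and 11.21 lay above the Esh9-1 values of 10.64, 10.70 and 10.66, and it fell by 0.51 ± 0.12 (adjusted p = 0.0021).

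MCM6 was the only ring subunit called lower in both comparisons. In ERC4 it fell by 0.24 ± 0.07 (adjusted p = 0.014) although 8.98, 9.03 and 9.17 in ERC4 overlapped with 9.15, 9.35 and 9.39 in parental arrays. In Esh9-1 it fell by 0.42 ± 0.07 (adjusted p = 0.00024). MCM5 rose in ERC4 by 0.43 ± 0.08 (adjusted p = 0.00023) and gave -0.17 ± 0.08 in Esh9-1 (adjusted p = 0.072). MCM3 gave -0.12 ± 0.06 in ERC4 (adjusted p = 0.11) and fell by 0.38 ± 0.06 in Esh9-1 (adjusted p = 0.00014). MCM2, MCM3, MCM6 and MCM7, whose E2F words are shown above, fell in Esh9-1 by 0.38 to 1.46 log2 units. Their changes in ERC4 ran from -0.24 to 0.37. No promoter of MCM4 or MCM5 was available, so no ring gene without a word could be set beside them.

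Of the 5 genes of helicase activation, 4 rose in ERC4 (52.8% of the 3987 brightest genes did). In Esh9-1 4 fell and 1 rose (32.8% and 34.8% of the brightest). MCM10, which helps to start the assembled helicase, had levels of 5.44, 5.50 and 5.41 in parental and 5.89, 6.35 and 5.94 in ERC4 arrays (0.61 ± 0.10, adjusted p = 0.00015). In Esh9-1 its values of 8.0, 8.01 and 7.99 were below the 8.68, 8.46 and 8.49 of NT, and it fell by 0.55 ± 0.10 (adjusted p = 4e-04). GINS1 and GINS2 encode subunits of the GINS complex, which joins the helicase together with CDC45. GINS1 measured 7.61, 7.86 and 7.86 in parental against 8.27, 8.30 and 8.22 in ERC4 arrays. In the other set it measured 10.68, 10.63 and 10.63 against 10.38, 10.25 and 10.28. Its changes were 0.49 ± 0.08 (adjusted p = 8.5e-05) and -0.34 ± 0.08 (adjusted p = 0.0016), both without overlap. GINS2 measured 8.38, 8.37 and 8.22 in parental and 8.58, 8.52 and 8.67 in ERC4 arrays (0.27 ± 0.07, adjusted p = 0.0034), and 10.00, 9.95 and 9.98 in NT and 9.76, 9.71 and 9.76 in Esh9-1 arrays (-0.23 ± 0.07, adjusted p = 0.0082). CDC45 was not called in ERC4 (0.00 ± 0.07, adjusted p = 0.98) and fell by 0.70 ± 0.07 in Esh9-1 (adjusted p = 7.4e-07).

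CDC7, the kinase that triggers helicase activation, rose in both comparisons. It rose in ERC4 from 6.83, 7.27 and 7.07 to 7.59, 7.84 and 7.85 (0.70 ± 0.11, adjusted p = 6.1e-05). In Esh9-1 it rose from 9.38, 9.25 and 9.16 in NT to 9.78, 9.73 and 9.81 (0.51 ± 0.11, adjusted p = 0.00092). Neither pair of groups overlapped, and the test of the difference between the 2 effects gave 0.19 ± 0.15 (adjusted p = 0.31).

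POLA1, the catalytic subunit of polymerase alpha, had the highest log2 fold change of the 46 genes in Esh9-1. Its levels were 6.80, 7.21 and 7.12 in parental and 6.97, 6.82 and 6.56 in ERC4 arrays, which overlapped (-0.26 ± 0.12, adjusted p = 0.069). In NT arrays it measured 7.79, 7.73 and 7.91, and in Esh9-1 arrays 10.96, 10.88 and 11.09. The rise of 3.17 ± 0.12 is 8.99-fold (adjusted p = 1.2e-11), and only 39 of the 11963 genes, POLA1 included, rose as much or more. This rests on 1 probe set. POLA2, the accessory subunit of the same enzyme, rose in ERC4 from 7.45, 7.35 and 7.86 to 8.43, 8.64 and 8.67 (1.02 ± 0.11, adjusted p = 2.6e-06). In Esh9-1 it was not called (-0.01 ± 0.11, adjusted p = 0.93), with 9.56, 9.59 and 9.68 in NT and 9.60, 9.65 and 9.55 in Esh9-1 arrays. PRIM1, the small primase subunit that works in the same complex, gave -0.05 ± 0.11 in ERC4 (adjusted p = 0.7) and fell by 0.59 ± 0.11 in Esh9-1 (adjusted p = 3e-04). The promoters of POLA1 and POLA2 each hold 1 E2F word, whose first base lies at position -137 and -53 from the start.

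POLE, POLE2 and POLD1, the 3 genes of the extending polymerases among the 46, rose in ERC4 and fell in Esh9-1. This held for 6.40% of all genes and 13.6% of the 3987 brightest. Of their partner subunits outside the 46, named here after their values were seen, POLD2, POLD3 and POLE3 rose in ERC4 (0.55, 0.76 and 0.52) but were not called in Esh9-1 (0.06, 0.11 and -0.06). POLD4 was not called in ERC4 (0.09) and rose by 0.33 ± 0.09 in Esh9-1 (adjusted p = 0.0094). POLE, the catalytic subunit of polymerase epsilon, copies the leading strand. It read 7.24, 7.17 and 6.88 in parental and 7.33, 7.45 and 7.43 in ERC4 arrays (0.30 ± 0.08, adjusted p = 0.0071). In Esh9-1 it went from 9.18, 9.09 and 9.17 to 8.29, 8.34 and 8.30 and fell by 0.84 ± 0.08 (adjusted p = 9.4e-07). POLE2, another subunit of that enzyme, rose from 7.34, 7.40 and 7.44 to 8.23, 8.45 and 8.52 in ERC4 (1.00 ± 0.08, adjusted p = 1.3e-07). In Esh9-1 it went from 9.39, 9.24 and 9.29 to 8.87, 8.97 and 9.03 and fell by 0.35 ± 0.08 (adjusted p = 0.0021). POLD1, the catalytic subunit of polymerase delta, changed by 0.26 ± 0.08 in ERC4 (7.87, 7.59 and 7.68 in parental, 7.91, 7.97 and 8.04 in ERC4 arrays, adjusted p = 0.011). Between NT (9.53, 9.69 and 9.65) and Esh9-1 (9.37, 9.35 and 9.43) it changed by -0.24 ± 0.08 (adjusted p = 0.02).

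All 9 genes of the clamp, its loader and the single-strand binding complex lay above 0 in ERC4 as deposited, 8 of them called, and 7 of the 9 fell in Esh9-1. Among the 3987 brightest genes, 52.8% were called higher in ERC4 and 32.8% lower in Esh9-1. After quantile normalization RFC2 lay at -0.05 in ERC4. PCNA, the sliding clamp, measured 9.67, 9.66 and 9.77 in parental and 9.91, 10.10 and 10.03 in ERC4 arrays (0.31 ± 0.07, adjusted p = 0.0019). It measured 12.23, 12.39 and 12.36 in NT and 11.64, 11.72 and 11.66 in Esh9-1 arrays and fell by 0.65 ± 0.07 (adjusted p = 2.5e-06). The clamp loader is built from RFC1 to RFC5, and its genes differed. RFC5 was not called in ERC4, with 7.93, 7.88 and 7.98 in parental and 7.86, 8.07 and 8.08 in ERC4 arrays (0.07 ± 0.09, adjusted p = 0.54). In Esh9-1 its brightest probe set had the lowest log2 fold change of the 46 genes, from 10.25, 10.24 and 10.10 in NT to 8.15, 8.52 and 8.27 (-1.89 ± 0.09, adjusted p = 4.5e-10). In a fit of all 19070 probe sets, another of its probe sets gave -0.82 ± 0.11 and the remaining one 0.89 ± 0.25 (adjusted p = 0.0083), so the direction of RFC5 is not the same in all 3. The NT arrays of that remaining probe set were uneven, at 8.0, 9.4 and 8.98.

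RFC4 rose in ERC4 from 7.99, 8.27 and 8.14 to 9.01, 8.96 and 8.88 (0.81 ± 0.07, adjusted p = 4e-07). In Esh9-1 its 10.15, 10.17 and 10.17 lay below the 10.51, 10.49 and 10.44 of NT (-0.32 ± 0.07, adjusted p = 0.0021). RFC3, too, was higher in ERC4, with 8.10, 8.46 and 8.30 in parental and 8.99, 9.17 and 9.05 in ERC4 arrays (0.78 ± 0.09, adjusted p = 3.4e-06). Its NT values were 10.97, 10.84 and 10.85 and its Esh9-1 values 10.64, 10.68 and 10.63 (-0.24 ± 0.09, adjusted p = 0.035). The other RFC3 probe set gave 1.17 ± 0.11 in ERC4 (adjusted p = 9.1e-07) and -1.03 ± 0.11 in Esh9-1 (adjusted p = 2.2e-06). RFC2 went from 7.74, 7.59 and 7.74 to 7.80, 7.87 and 7.94 in ERC4 (0.18 ± 0.07, adjusted p = 0.048, and -0.05 after quantile normalization within the set). From 9.62, 9.79 and 9.75 in NT to 9.37, 9.46 and 9.45 in Esh9-1 it fell by 0.29 ± 0.07 (adjusted p = 0.0031). RFC1, the large subunit, rose by 0.96 ± 0.07 in ERC4 (adjusted p = 4.7e-08) and gave 0.02 ± 0.07 in Esh9-1 (adjusted p = 0.86). Another RFC1 probe set rose in both, by 0.66 ± 0.09 in ERC4 (adjusted p = 1.6e-05) and 0.41 ± 0.09 in Esh9-1 (adjusted p = 0.00093). The remaining RFC1 probe set was called in neither, at -0.24 in ERC4 and -0.03 in Esh9-1.

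RPA1, RPA2 and RPA3 form the complex that coats single-stranded DNA, and all 3 rose in ERC4. RPA2 rose most, from 7.41, 7.83 and 7.48 in parental to 8.73, 8.82 and 8.90 in ERC4 arrays, by 1.24 ± 0.09 or 2.37-fold (adjusted p = 6.3e-08). It was not called in Esh9-1 (0.06 ± 0.09, adjusted p = 0.61), where the arrays read 10.48, 10.47 and 10.50 in NT and 10.56, 10.50 and 10.58 in Esh9-1. Its partners did fall there. RPA1 went from 8.60, 8.85 and 8.80 to 9.36, 9.38 and 9.36 in ERC4 (0.62 ± 0.07, adjusted p = 8.1e-06) and from 11.60, 11.54 and 11.64 to 11.07, 10.95 and 11.11 in Esh9-1 (-0.55 ± 0.07, adjusted p = 2e-05). RPA3 went from 9.02, 9.09 and 8.98 to 9.58, 9.54 and 9.73 (0.59 ± 0.07, adjusted p = 6.2e-06) and from 11.11, 11.18 and 11.22 to 10.71, 10.65 and 10.60 (-0.51 ± 0.07, adjusted p = 2e-05). On the lagging strand, FEN1 trims the flaps of Okazaki fragments and LIG1 seals them. FEN1 gave 0.23 ± 0.08 in ERC4 (adjusted p = 0.022, and -0.0016 after quantile normalization within the set) and 0.10 ± 0.08 in Esh9-1 (adjusted p = 0.32). LIG1 gave -0.13 ± 0.10 (adjusted p = 0.27) and -0.27 ± 0.10 (adjusted p = 0.034).

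**Figure D3:**
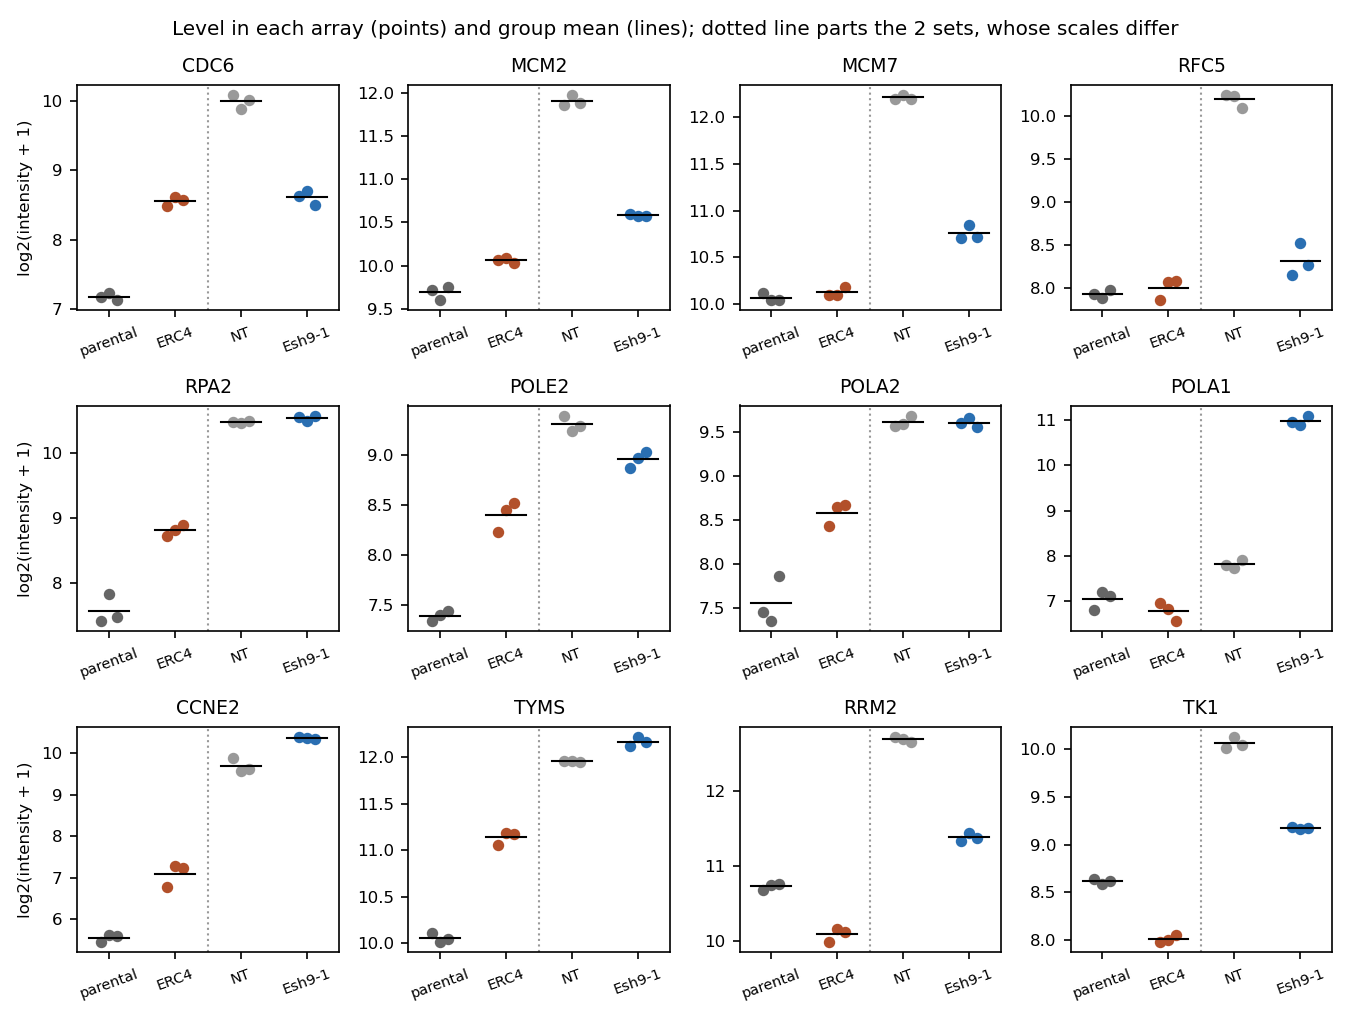
Log2(intensity + 1) (y axis, own scale in each panel) of 12 of the genes in each array (points), by group (x axis), with the group mean as a line; the dotted line parts the 2 sets, whose scales differ. CDC6 rises from 7.13 to 7.23 up to 8.48 to 8.61 in ERC4 and drops to between 8.50 and 8.71 in Esh9-1, while POLA1 climbs to between 10.88 and 11.09 in Esh9-1.

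The 5 genes of nucleotide supply were split, with 2 higher and 2 lower in ERC4 and 1 higher and 3 lower in Esh9-1. For the 3987 brightest genes the shares were 52.8% and 16.8% in ERC4, and 34.8% and 32.8% in Esh9-1. TYMS, thymidylate synthase, makes dTMP anew. Its levels were 10.11, 10.01 and 10.04 in parental and 11.06, 11.18 and 11.17 in ERC4 arrays, an increase of 1.08 ± 0.06 or 2.12-fold (adjusted p = 4.4e-09). In Esh9-1 its 12.12, 12.22 and 12.16 lay slightly above the 11.96, 11.96 and 11.95 of NT (0.21 ± 0.06, adjusted p = 0.012). The other TYMS probe set gave 0.11 ± 0.12 in ERC4 (adjusted p = 0.45) and -0.59 ± 0.12 in Esh9-1 (adjusted p = 0.00059), the opposite direction there. TK1, thymidine kinase, makes the same product by salvage and fell in both comparisons. It measured 8.64, 8.59 and 8.62 in parental and 7.98, 8.0 and 8.06 in ERC4 arrays and fell by 0.61 ± 0.06 (adjusted p = 1e-06). In the other set it went from 10.01, 10.13 and 10.04 in NT to 9.19, 9.16 and 9.18 in Esh9-1 and fell by 0.88 ± 0.06 (adjusted p = 1.4e-08).

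RRM2, the S-phase subunit of ribonucleotide reductase, was called lower in both by its brightest probe set. Its parental values of 10.68, 10.74 and 10.76 dropped to 9.98, 10.15 and 10.12 in ERC4, by 0.64 log2 units (adjusted p = 1.4e-06), the lowest log2 fold change of the 46 genes there. From 12.73, 12.70 and 12.66 in NT it fell to 11.34, 11.44 and 11.38 in Esh9-1, by 1.31 log2 units or 2.48-fold (adjusted p = 4.3e-10). The other RRM2 probe set was not called in ERC4 (-0.01 ± 0.07, adjusted p = 0.95) and gave -0.53 ± 0.07 in Esh9-1 (adjusted p = 2.1e-05). RRM1, the large subunit of the same enzyme, rose by 0.29 ± 0.07 in ERC4 (adjusted p = 0.0034) and gave 0.13 ± 0.07 in Esh9-1 (adjusted p = 0.15). DUT, which keeps uracil out of DNA by removing dUTP, gave -0.13 ± 0.09 in ERC4 (adjusted p = 0.21) and fell by 0.52 ± 0.09 in Esh9-1 (adjusted p = 0.00015).

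None of the 3 genes of S-phase entry was called lower in Esh9-1 by its brightest probe set. CCNE2, one of the 2 genes for cyclin E, the activator of CDK2 at the border of G1 and S, had the highest log2 fold change of the 46 genes in ERC4. It rose from 5.44, 5.61 and 5.60 in parental to 6.77, 7.28 and 7.22 in ERC4 arrays, by 1.54 ± 0.12 or 2.91-fold (adjusted p = 7.3e-08). Its brightest probe set rose in Esh9-1 too, from 9.88, 9.57 and 9.63 in NT to 10.40, 10.37 and 10.34 (0.68 ± 0.12, adjusted p = 2e-04). The other CCNE2 probe set also rose in ERC4 (1.01 ± 0.15) but fell by 0.85 ± 0.15 in Esh9-1 (adjusted p = 0.00023), so that no direction can be given for CCNE2 in Esh9-1. CCNE1, the other cyclin E gene, read 6.16, 6.18 and 6.23 in parental and 6.20, 6.89 and 6.53 in ERC4 arrays, which overlapped (0.35 ± 0.13, adjusted p = 0.032). In Esh9-1 it rose from 8.56, 8.74 and 8.82 to 9.40, 9.26 and 9.26 (0.60 ± 0.13, adjusted p = 0.0013). E2F1, the founding member of the E2F family, was called lower in ERC4 by its brightest probe set, where 6.65, 6.51 and 7.18 in parental arrays compared with 6.43, 6.30 and 6.45 (-0.39 ± 0.13, adjusted p = 0.02). In Esh9-1 it gave 0.09 ± 0.13 (adjusted p = 0.61). The other E2F1 probe set was not called in ERC4 (0.07 ± 0.09, adjusted p = 0.53) and was called lower in Esh9-1 (-0.26 ± 0.09, adjusted p = 0.019).

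The 2 subunits of chromatin assembly factor 1, which places histones on new DNA, were not called in ERC4. Both were called lower in Esh9-1 by their brightest probe sets. CHAF1A gave -0.01 ± 0.10 (adjusted p = 0.95) and -0.25 ± 0.10 (adjusted p = 0.044), and CHAF1B -0.02 ± 0.10 (adjusted p = 0.9) and -0.31 ± 0.10 (adjusted p = 0.017). The other CHAF1A probe sets were not called in Esh9-1, at -0.23 ± 0.10 (adjusted p = 0.074) and -0.11 ± 0.11 (adjusted p = 0.43). MSH6, which finds mismatches left by the polymerases, read 8.03, 8.01 and 8.01 in parental and 8.24, 8.28 and 8.27 in ERC4 arrays (0.25 ± 0.06, adjusted p = 0.0024). It read 10.43, 10.43 and 10.48 in NT and 10.14, 10.17 and 10.24 in Esh9-1 arrays (-0.26 ± 0.06, adjusted p = 0.0016). BRCA1, which acts in recombination repair at broken forks, was called lower in both comparisons. Its parental values were 6.86, 6.60 and 6.63 and its ERC4 values 6.29, 6.09 and 6.20 (-0.51 ± 0.10, adjusted p = 0.00088), and NT at 8.54, 8.18 and 8.27 compared with Esh9-1 at 7.50, 7.63 and 7.38 (-0.83 ± 0.10, adjusted p = 9.9e-06). Its other probe set gave -0.20 ± 0.08 in ERC4 (adjusted p = 0.058) and -0.38 ± 0.08 in Esh9-1 (adjusted p = 0.0016).

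Set side by side, the comparisons share no arrays. Of the 46 genes, 18 (39.1%) rose in ERC4 and fell in Esh9-1: ORC5, CDC6, CDT1, MCM2, MCM4, MCM10, GINS1, GINS2, POLD1, POLE, POLE2, PCNA, RFC2, RFC3, RFC4, RPA1, RPA3 and MSH6 (CDT1 and RFC2 lie just below 0 in ERC4 after quantile normalization). Of these 18, 11 kept both calls after quantile normalization within each set, where GINS2, POLD1, POLE, PCNA and MSH6 also lost their call in ERC4. With MCM5 and ORC2, which then gained the pattern, the count was 13, and it was 11 after quantile normalization over all 12 arrays. With the probe sets of each gene averaged it was 24. As reported, this pattern held for 6.40% of all genes and for 13.6% of the 3987 brightest. These shares were not counted under the other settings. None of the 46 genes was called the reverse way, as 3.25% of all genes were. By their brightest probe sets 4 genes (8.70%) were called higher in both, CDC7, TYMS, CCNE1 and CCNE2, where 13.4% of all genes were. The other probe sets of TYMS (a dim one) and CCNE2 were called lower in Esh9-1, and with probe sets averaged TYMS gave -0.19 and CCNE2 -0.09 there. Another 4 genes (8.70%) were called lower in both, MCM6, RRM2, TK1 and BRCA1, where 8.80% of all genes were. The test of the difference of effects took ERC4 minus parental less Esh9-1 minus NT. It called a positive difference for 35 of the 46 genes (76.1%, against 25.5% of all genes and 46.2% of the 3987 brightest). A negative one was called for 2 (4.35%, against 24.1% of all genes and 18.4% of the brightest). In either direction, 49.6% of all genes were called. A positive difference is a more positive change and not always a rise in ERC4, as RRM2 and TK1, called lower there, also had one. The 2 negative differences were POLA1 at -3.43 and E2F1 at -0.47. The other E2F1 probe set was called the opposite way, at 0.33 (adjusted p = 0.036). CDC6 had the highest difference at 2.77 ± 0.11 (adjusted p = 9.7e-11). The log2 values had an SD of 1.78 to 1.92 per array in the first set and 2.19 to 2.23 in the second. With that spread made equal, 33 differences were called positive and 2 negative, and after quantile normalization within each set 29 and 2. Under these 2 settings, 47.7% and 34.2% of the 3987 brightest genes had a positive difference called.

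**Figure D4:**
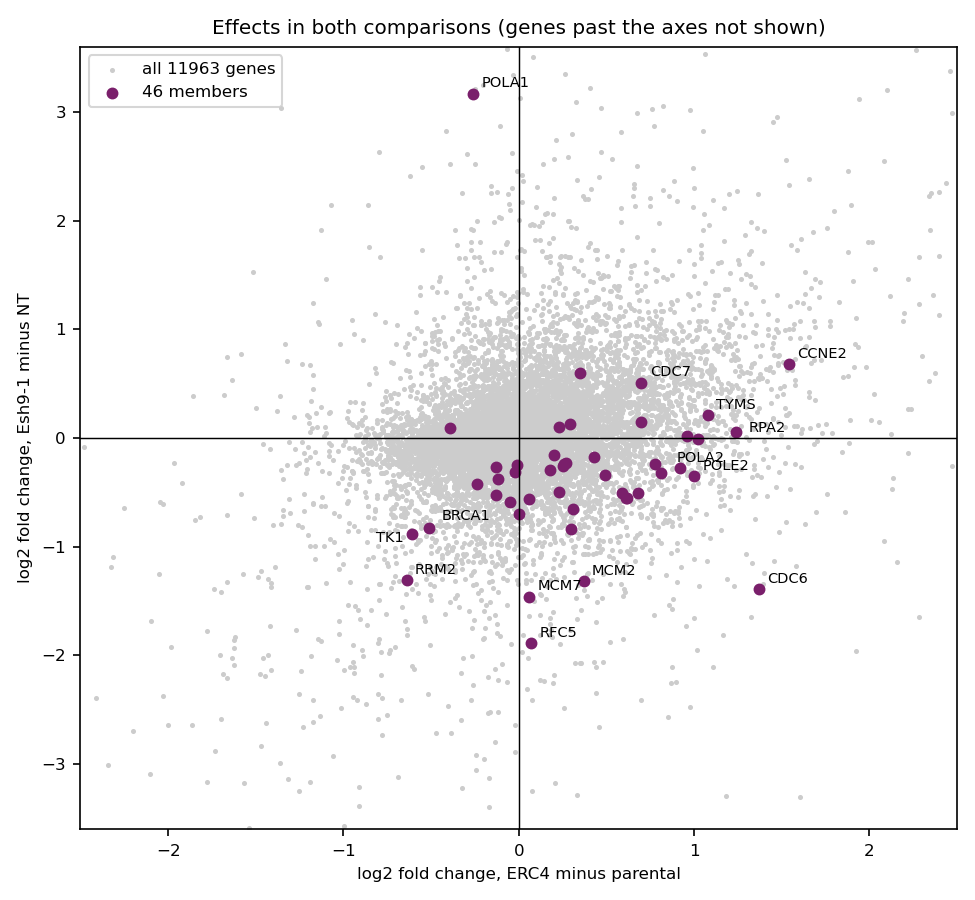
Log2 fold change in ERC4 minus parental (x axis) against that in Esh9-1 minus NT (y axis) for all 11963 genes (grey, those past the axes not drawn) and the 46 replication genes (purple). The lower right part holds the 18 genes called higher in ERC4 and lower in Esh9-1 (RFC2 and CDT1 leave it after quantile normalization), with CDC6 farthest out at 1.37 and -1.39.

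The calls were also counted with and without an E2F word. Only TTTCGCGC and TTTGGCGC were searched, so genes without a word may still hold other forms of the site. Of the 13 genes that hold one, 7 rose and 2 fell in ERC4 and 9 fell and 1 rose in Esh9-1, with medians of 0.30 and -0.38. Of the 28 genes whose promoters hold none, 18 rose and 3 fell in ERC4 and 21 fell and 3 rose in Esh9-1, with medians of 0.24 and -0.29. The share lower in Esh9-1 was 69.2% with and 75.0% without the word, where 24.6% of all genes were lower. The promoters of POLE2 and E2F1 hold the same word TTTGGCGC on opposite strands, and POLE2 rose by 1.00 in ERC4 while E2F1 fell by 0.39.

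Probe sets of a gene, each tested on its own among 19070, often gave different sizes of change. Over the 20 genes with several probe sets, the distance between the highest and the lowest log2 fold change had a median of 0.39 in ERC4 minus parental and 0.59 in Esh9-1 minus NT. MCM4 had 4 probe sets, at -0.51 (the brightest), -1.11, -0.80 and -2.21 in Esh9-1, all called lower, the brightest being nearest to 0. In ERC4 the same 4 gave 0.68, -0.09, -0.15 and 0.54, and only the first and the last were called, both higher. MCM7 and RFC5, not called in ERC4 by their brightest probe sets, each had another that was called higher there, at 0.30 (adjusted p = 0.0033) and 0.35 (adjusted p = 0.011). MCM5 and DUT had another at -0.04 (adjusted p = 0.65) and -0.37 (adjusted p = 0.0041) in ERC4. In Esh9-1, RRM1 was not called by its brightest probe set (0.13) but fell by 1.02 in the other (adjusted p = 1.2e-07). FEN1 showed the same pattern in Esh9-1, at 0.10 and -0.86 (adjusted p = 9.8e-08). For MSH6 in Esh9-1 the brightest gave -0.26 and another -1.27, while the remaining one gave -0.09. CCNE2, TYMS and RFC5 were the 3 genes with probe sets called in opposite directions in Esh9-1, and none had them in ERC4. For TYMS the probe set called lower is the dim one, and for RFC5 the one called higher had uneven NT arrays. With every probe set counted on its own, 40 of 74 were higher and 6 lower in ERC4, where 27.3% and 27.9% of all probe sets were. In Esh9-1, 53 of 74 were lower and 7 higher, where 25.0% and 24.3% of all probe sets were. The 3′ minus 5′ excess of the ACTB and GAPDH controls given above lay in the same Esh9-1 arrays, and its part in these differences was not tested.

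**Figure D5:**
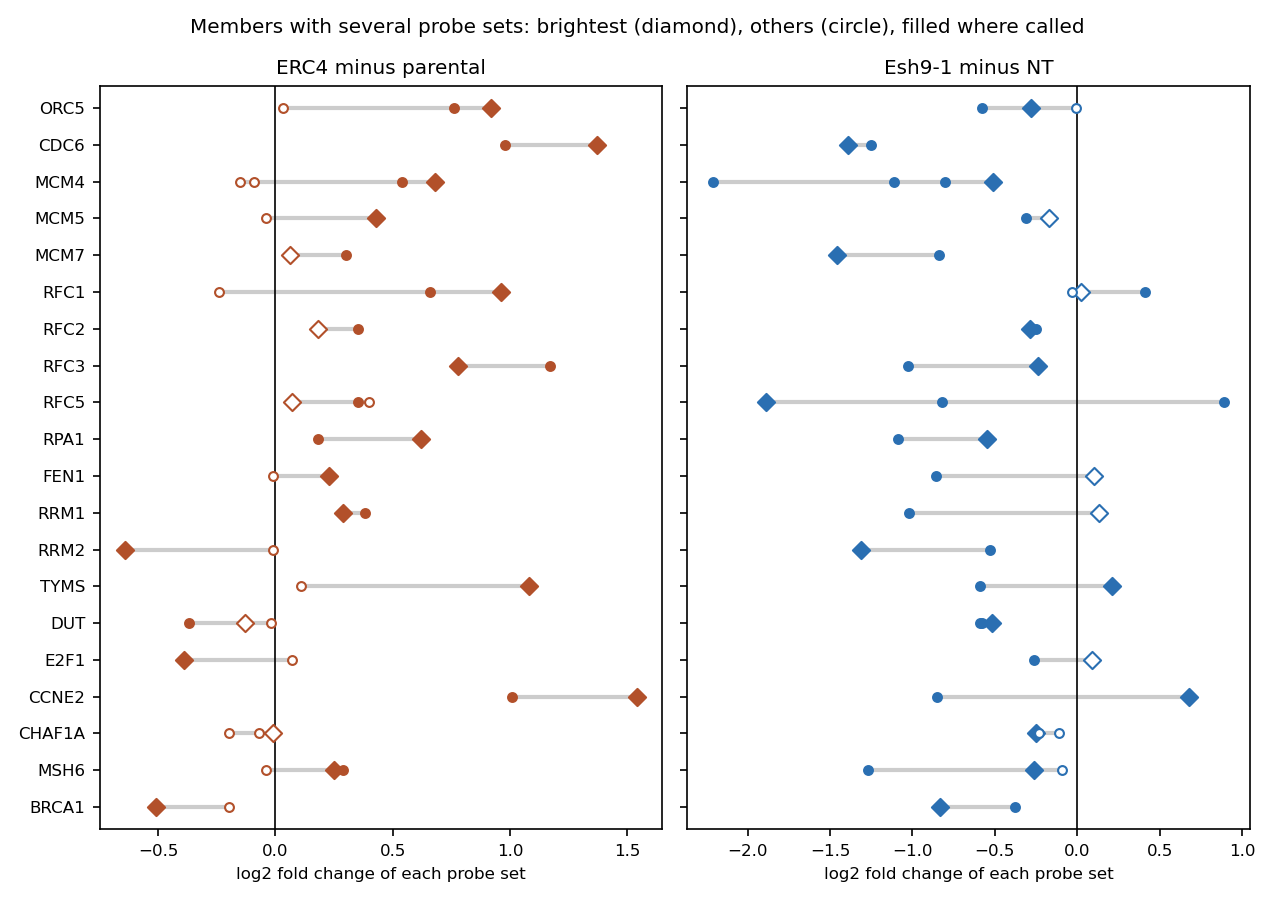
Log2 fold change (x axis) of every probe set of the 20 replication genes with several (y axis), in ERC4 minus parental and Esh9-1 minus NT; diamonds are the brightest probe sets, circles the others, and filled symbols are called. In Esh9-1 the MCM4 symbols spread from -2.21 to -0.51 and those of RFC5 from -1.89 to 0.89.

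Some small calls ended when 1 array was left out, often any 1 of several arrays. In ERC4 minus parental, the call of RFC2 ended without any 1 of 9 arrays (parental replicates 2 and 3, ERC4 2 and 3, NT 2 and 3, or Esh9-1 1, 2 and 3), with adjusted p between 0.0501 and 0.17 and log2 fold changes of 0.13 to 0.20. That of CDT1 ended without any parental or ERC4 array, NT replicate 2 or Esh9-1 replicate 2 (0.18 to 0.25, adjusted p 0.0564 to 0.152). CCNE1 lost its call without any parental array or ERC4 replicate 2 or 3 (0.17 to 0.37), and FEN1 without parental replicate 1 or ERC4 replicate 2 or 3 (0.15 to 0.22). ORC2 (0.16 and 0.18) lost it without parental replicate 1 or ERC4 replicate 2, MCM6 (-0.20 and -0.19) without parental replicate 3 or ERC4 replicate 1, E2F1 (-0.34 and -0.19) without parental replicate 3 or ERC4 replicate 2, and POLD1 (0.20) without parental replicate 2. In Esh9-1 minus NT, RFC3 lost its call without any NT or Esh9-1 array (-0.26 to -0.19). CHAF1A did so without any of 8 arrays (parental 2 and 3, ERC4 3, NT 1, 2 and 3, or Esh9-1 2 and 3; -0.28 to -0.19). LIG1 lost its call without any NT array or Esh9-1 replicate 2 (-0.29 to -0.16), ORC5 without NT 2 or 3 or Esh9-1 2 or 3 (-0.28 to -0.25), and POLD1 without NT 2 or 3 or Esh9-1 1 or 2 (-0.23 to -0.21). TYMS (0.18) lost it without Esh9-1 replicate 2 and CHAF1B (-0.29) without NT replicate 2. Without 1 array, 13 to 17 genes were called higher in ERC4 and lower in Esh9-1, against 18 as reported. Without parental replicate 3 the count of genes lower in ERC4 was 3 in place of 5. In the difference of effects, the call of E2F1 ended without any 1 of 10 arrays, all but parental replicates 1 and 2 (-0.51 to -0.27, adjusted p 0.0541 to 0.0959). That of MCM3 ended without any 1 of 4 arrays (ERC4 2, NT 1 and 2, or Esh9-1 1; 0.21 to 0.25, adjusted p 0.0514 to 0.0751). The calls of the other genes, in both comparisons and in the difference, were kept without any 1 array.

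Other genes of the pathway, 97 measured ones in 5 lists, were more often called higher than lower in ERC4 and more often lower than higher in Esh9-1. In ERC4 53 rose and 13 fell (54.6% and 13.4%), and in Esh9-1 38 fell and 25 rose (39.2% and 25.8%). Over all genes 28.9% were higher and 28.8% lower in ERC4 and 24.6% lower and 25.3% higher in Esh9-1, and of the 3987 brightest 52.8%, 16.8%, 32.8% and 34.8%. The same shares belong beside the counts of each of the 5 lists. Nearest to the 46 genes were the 27 further fork and origin genes, with 15 higher and 3 lower in ERC4 and 14 lower and 4 higher in Esh9-1. DBF4, the activating partner of CDC7, rose by 1.04 ± 0.08 in ERC4 (adjusted p = 4.9e-08), and GINS4 fell by 0.64 ± 0.18 (adjusted p = 0.007). In Esh9-1, WDHD1, which ties polymerase alpha to the helicase, fell by 1.51 ± 0.10 (adjusted p = 1.7e-08), and TIMELESS, a fork protection gene, fell by 0.89 ± 0.10 (adjusted p = 2.1e-06). PRIM2, the large primase subunit, rose there by 0.55 ± 0.08 (adjusted p = 6.8e-05), unlike PRIM1.

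Further genes of nucleotide supply, 19 in number, were split: 8 rose and 3 fell in ERC4, and 5 rose and 7 fell in Esh9-1. CTPS1, which makes CTP, rose in both, by 0.93 ± 0.07 (adjusted p = 1.1e-07) and 0.68 ± 0.07 (adjusted p = 2e-06). CAD, which starts pyrimidine synthesis, fell by 0.82 ± 0.06 in Esh9-1 (adjusted p = 4.6e-08). TK2, the mitochondrial thymidine kinase, rose there by 1.19 ± 0.09 (adjusted p = 4.6e-08), against the fall of TK1.

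Among 27 genes of the E2F, RB and S-phase entry list, 15 rose and 5 fell in ERC4, and 10 rose and 5 fell in Esh9-1. RB1, the repressor of E2F, rose by 1.16 ± 0.10 in ERC4 (adjusted p = 3.8e-07), and SKP2, which directs the breakdown of p27, by 1.07 ± 0.09 (adjusted p = 1.2e-07). CDKN1B, which encodes p27 itself, an inhibitor of cyclin E and CDK2, rose in both, by 1.03 ± 0.15 (adjusted p = 5.6e-05) and 1.03 ± 0.15 (adjusted p = 4.8e-05). CDKN1A, which encodes the CDK inhibitor p21, fell by 0.91 ± 0.09 in ERC4 (adjusted p = 1.2e-06). In Esh9-1 CCND3 and CDK6, which act upstream of RB, rose by 1.24 ± 0.09 (adjusted p = 1.6e-08) and 1.18 ± 0.12 (adjusted p = 1.4e-06), and E2F4 fell by 0.62 ± 0.07 (adjusted p = 1.8e-06).

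Of 13 genes of chromatin copying, 8 rose and 1 fell in ERC4, and 3 rose and 6 fell in Esh9-1. ASF1A, a histone chaperone, rose by 1.07 ± 0.12 in ERC4 (adjusted p = 2.6e-06) and fell by 0.70 ± 0.12 in Esh9-1 (adjusted p = 0.00013). RBBP4 and RBBP7, close relatives that bind histones, went opposite ways in Esh9-1, at -0.87 ± 0.09 (adjusted p = 1.8e-06) and 1.40 ± 0.07 (adjusted p = 2e-10). Of 11 replication checkpoint genes, 7 rose and 1 fell in ERC4, and 3 rose and 6 fell in Esh9-1. ATR, the kinase that senses stalled forks, rose by 0.96 ± 0.11 in ERC4 (adjusted p = 6.2e-06), and WEE1, which holds back CDKs, rose in both, by 0.93 ± 0.11 (adjusted p = 7.9e-06) and 0.70 ± 0.11 (adjusted p = 0.00011). BARD1, the partner of BRCA1, fell in both, by 0.40 and 0.55 log2 units (adjusted p = 0.00088 and 4.6e-05), as BRCA1 did.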

How the data were processed

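Each of the 12 arrays has deposited intensities for 22277 probe sets, on a linear scale; the submitters' processing notes name RMA. Its version is not given in the sources used here, nor is which arrays were normalized together. Biotin-labelled cRNA was made from total RNA per the labels' protocols. Values were taken to log2(intensity + 1), which understates changes of dim genes. Probe sets with 1 symbol in the platform annotation (19070; 1043 had several and 2164 none) gave 11963 genes, each by its brightest probe set. Group differences came from 1 limma fit (version 3.58.1, R 4.3.3; lmFit, eBayes; all 12 arrays, 8 residual degrees of freedom), two-sided, with Benjamini-Hochberg adjustment over all genes and a threshold of 0.05; the procedure was tested on simulated data. Errors of fold changes are limma's standard errors. The number of arrays limits the precision, and the labels do not say that replicates were separate cultures; p-values then reflect the spread of these samples alone, which may be technical. An exact permutation test of 3 against 3 arrays cannot go below 0.1. Genes given array by array are the 6 highest and 6 lowest called changes of each comparison, the genes called in opposite directions, TYMS and CCNE2, beside EGFR as the check of the labels; of each other list, up to 3 called genes in each direction by size were open to naming. The design assumed log2 values, so the linear values were converted. The members, lists and tests were chosen with earlier results of these data known. Promoters are RefSeq's, GRCh38.p14. Figures were drawn with matplotlib 3.10.9. Alternatives are in the closing section.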

Additional observations from a re-analysis of the deposited data

Results flagged for a closer look

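The change in ERC4 (minus parental) differed from the change in Esh9-1 (minus NT) for 37 of the 46 genes by limma's test of the difference, where 49.6% of all genes were called in either direction. Among the 3987 brightest genes, 46.2% had a positive and 18.4% a negative difference called. Each value here is the first log2 fold change less the second. Among licensing genes the differences were 2.77 for CDC6, 1.69 for MCM2, 1.52 for MCM7, 1.20 for ORC5 and 1.20 for MCM4. Smaller ones were 0.73 for CDT1, 0.62 for ORC1, 0.61 for MCM5, 0.55 for GMNN, 0.37 for ORC2 and 0.25 for MCM3. Helicase activation gave 1.16 for MCM10, 0.83 for GINS1, 0.70 for CDC45 and 0.50 for GINS2. Polymerase genes gave 1.36 for POLE2, 1.15 for POLE, 1.04 for POLA2, 0.54 for PRIM1 and 0.50 for POLD1, while POLA1 stood at -3.43. Around the clamp the values were 1.96 for RFC5, 1.18 for RPA2, 1.17 for RPA1, 1.13 for RFC4, 1.10 for RPA3, 1.02 for RFC3, 0.96 for PCNA, 0.94 for RFC1 and 0.47 for RFC2. Nucleotide supply gave 0.88 for TYMS, 0.67 for RRM2, 0.39 for DUT and 0.27 for TK1. CCNE2 gave 0.86, E2F1 -0.47 and MSH6 0.51. The other E2F1 probe set gave 0.33, called the opposite way. MCM6, CDC7, FEN1, LIG1, RRM1, CCNE1, CHAF1A, CHAF1B and BRCA1 were not called in this test.

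Array controls outside the gene comparisons also differed. The 3′ minus 5′ log2 signal was higher in Esh9-1 than in NT by 0.87 for ACTB and by 0.35 for GAPDH (two-sided exact permutation test, p = 0.1 for both, which is the smallest that 3 against 3 arrays can give). Its part in the changes of the replication genes was not tested.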

How the results depend on the processing

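Among the 46 genes in ERC4, quantile normalization over all 12 arrays gave 21 higher and 10 lower (30 and 5 as reported) with a median of 0.11, and within each set 21 and 9 with 0.11. Cyclic loess within each set, chosen after seeing the data, gave 21 and 8 with 0.10. Of the 3987 brightest genes, 35.9%, 35.6% and 36.3% were called higher in ERC4 under these 3 settings (52.8% as reported). Of the 46 genes, those called lower in ERC4 numbered 3 with only the 6 arrays compared and 3 at a threshold of 0.01. In Esh9-1, averaging the probe sets of a gene left 3 genes higher (5 as reported), with a median of -0.38. In the difference of effects 1 gene was lower (2 as reported) with each array minus its median, with the mean of probe sets and at 0.01. Of the 97 other genes in ERC4, 20 were lower under either quantile normalization and 8 without dim genes (13 as reported). In ERC4, CDT1 turned to -0.0038 and -0.0027, RFC2 to -0.05 and -0.05 and FEN1 to -0.00048 and -0.0016 over all arrays and within sets, and RFC2 to -0.01 under cyclic loess. In Esh9-1, TYMS (with its dim probe set averaged in) turned to -0.19 and CCNE2 to -0.09 under the mean of probe sets. The cause was not tested. With 1 array left out, 25 to 30 of the 46 genes were higher and 3 to 7 lower in ERC4, 4 to 5 higher and 26 to 33 lower in Esh9-1, and 34 to 36 higher and 1 to 2 lower in the difference. With a replicate block, 28 were higher and 5 lower in ERC4 (CDT1 and RFC2 lost their calls), 5 and 32 in Esh9-1, and 35 and 2 in the difference. Deviations of same-numbered arrays correlated by -0.12 to 0.07 and those of different-numbered arrays by -0.10 to 0.14. These values gave no sign of pairing, but they cannot show whether same-numbered arrays were handled together. Dim probe sets limit what can be called, and so do 3 arrays per group.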
